A study of Mus musculus with 12 samples.

Results

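The matrix metalloproteinases (MMPs), the ADAMTS proteases and the tissue inhibitors of metalloproteinases (TIMPs) were described in injured mouse muscle with and without Pparg in fibro-adipogenic progenitors (FAPs), stromal cells of muscle from which adipocytes can form. Members were the protein-coding genes of the count table named Mmp, Adamts or Timp with a number, which gave 45 of 54532 genes: 22 MMPs, 19 ADAMTS and 4 TIMPs. RNA was sequenced from whole lysates of the tibialis anterior, a muscle at the front of the shin, taken at day 5 of a glycerol injury, a model in which fat forms between the regenerating fibres. Both groups carry the label 129svlmJ and had the same injury: 6 control libraries are labelled wild type and 6 libraries, called knockout here, carry the genotype label "FAP no ppary", a conditional deletion in FAPs of Pparg, a nuclear receptor needed to form adipocytes. The labels name no Cre driver, age or sex and do not say that the libraries of a group came from separate animals, so p-values measure the spread between these libraries only.

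MMPs are zinc proteases that cut collagens, laminins and other matrix proteins, and most are made as inactive precursors whose propeptide has to be removed. ADAMTS proteases share the metalloproteinase core and add thrombospondin repeats that hold them in the matrix; some cut the large proteoglycans aggrecan and versican, and others trim procollagens. TIMPs bind the active site and block it, so the RNA of proteases and inhibitors says nothing by itself about the activity of the enzymes. In injured muscle these genes are known from fibroblast-like cells, invading macrophages and neutrophils, endothelium and the regenerating fibres.

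Library totals ranged from 15716100 to 29790700 counts, and the members took between 0.158% and 0.244% of them. Pparg stood at 44.96 to 67.4 CPM (counts scaled to library size) in control libraries and 15.6 to 43.1 CPM in knockout libraries, so the groups did not overlap for the targeted gene, counted over its whole length. Over all genes, the edgeR quasi-likelihood test called 131 of 16393 genes at a Benjamini-Hochberg adjusted p under 0.05, which is 0.799%, with 0.75% lower and 0.0488% higher in the knockout. That count moved with single libraries. Leaving out control 1, 2, 3, 4, 5 or 6 gave 65, 24, 72, 12, 90 or 126 calls. Leaving out knockout 1, 2, 3, 4, 5 or 6 gave 200, 214, 6, 9, 77 or 35. Markers of adipocytes, 10 genes fixed as a list, summed to 2558 to 4442 CPM in control libraries and 431 to 1832 CPM in knockout libraries, with knockout replicates 1 and 2 (1832 and 1593 CPM) above the other 4. Pparg was likewise highest in knockout replicates 1 and 2, at 33.9 and 43.1 CPM. FAP markers summed to 1816 to 2571 CPM in control libraries and 1184 to 1937 CPM in knockout libraries, and macrophage markers to 7128 to 8674 and 5416 to 9286 CPM. Mature fibre markers summed to 20425 to 45932 CPM in control libraries and 17082 to 57388 CPM in knockout libraries. Control replicates 2 and 6 (20425 and 20484 CPM) and knockout replicate 6 (17082 CPM) were lowest. The part of fibre content in the members' values was not tested. In whole muscle, fewer cells of a type and less RNA per cell cannot be told apart.

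Mmp28 was the one member that passed the adjusted p threshold, and its knockout mean was 45.1% of its control mean. Of the 36 members with enough reads to be tested, 1 fell, 0 rose and 35 did not pass, which is 2.78% of members beside 0.799% of all tested genes. Log2 fold changes, given throughout as knockout minus control, were negative for 20 members, 55.6% beside 50.5% of all genes, and positive for 16, with a median of -0.06 beside -0.0013 over all tested genes. At an unadjusted p under 0.05 there were 6 members, 16.7% beside 9.47% of all genes: Mmp28, Adamts15, Adamts5, Mmp19, Mmp15 and Timp1. The groups did not overlap for 2 members, Mmp28 and Mmp19, which is 5.56% beside 1.43% of all genes; both were lower in the knockout, as were 1.27% of all genes. The shares past the adjusted threshold and without overlap rest on 1 and 2 genes. None of the shares given here was tested, and they say nothing of the members as a group.

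**Figure D1:**
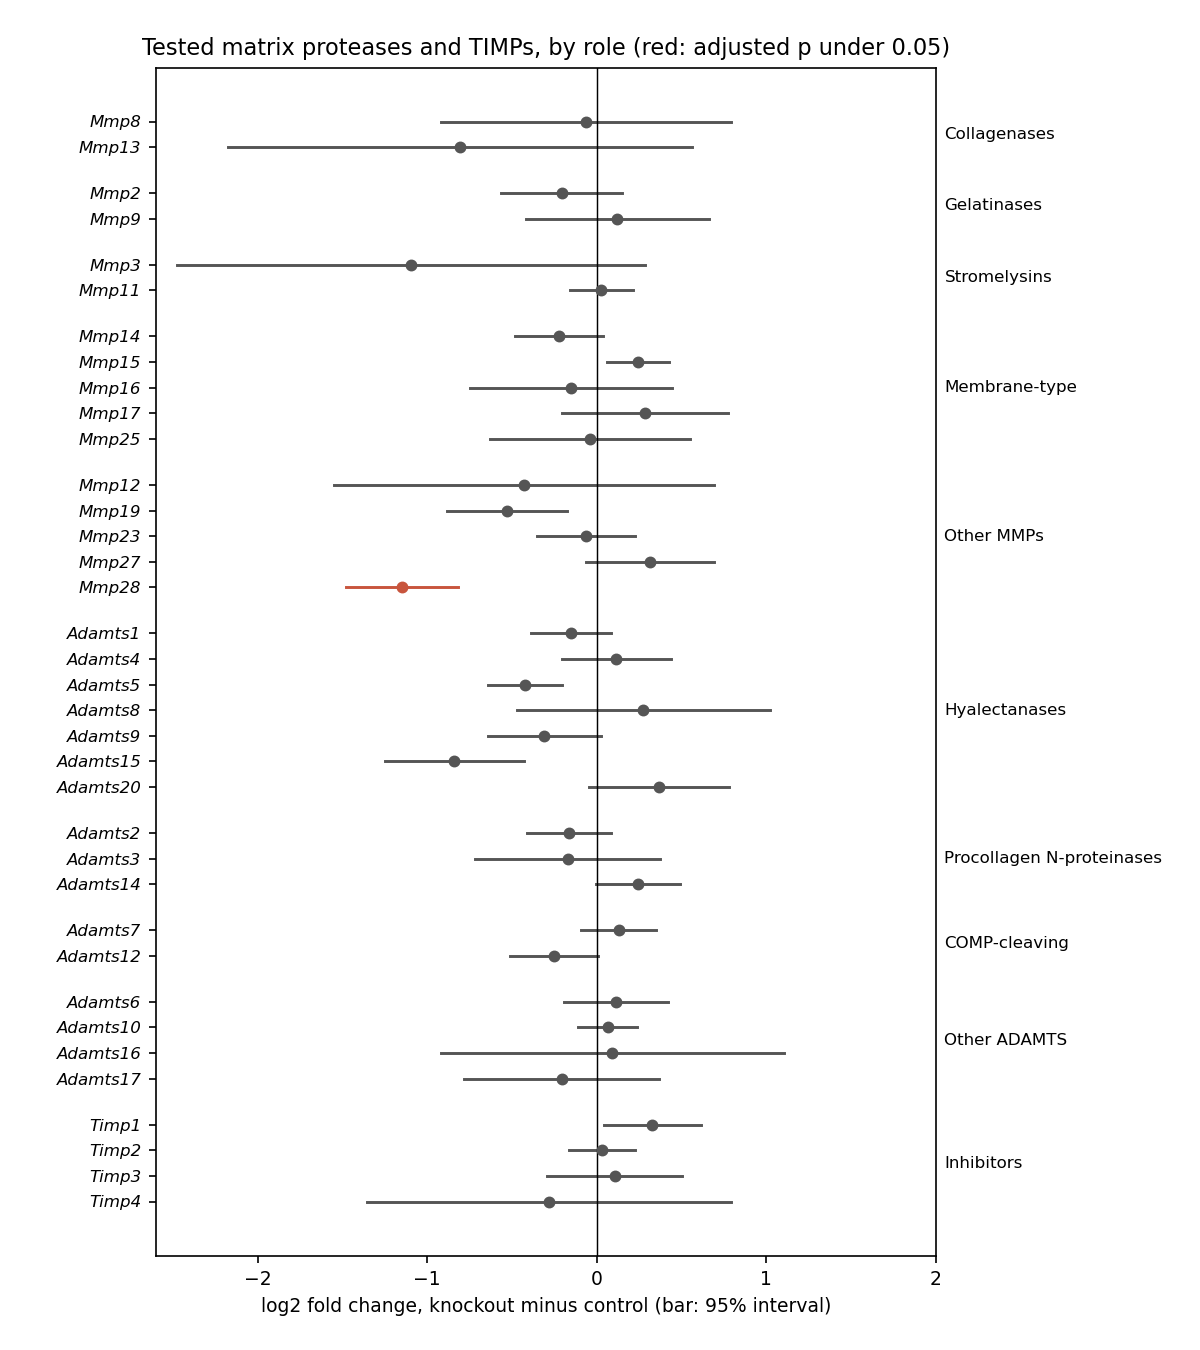
Log2 fold changes (knockout minus control, horizontal axis) of the 36 tested members, grouped by role, with 95% intervals as bars. Mmp28, in red, is the one member with an adjusted p under 0.05, and Mmp3, Mmp13 and Mmp12 have the wide intervals of genes that varied between libraries.

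Mmp28 encodes epilysin, a secreted MMP with a furin cleavage site that is known from skin and macrophages. It lies on chromosome 11, 83440768 to 83463071, minus strand, GRCm38 (ENSMUSG00000020682). In controls it had a lowest value of 9.24, a median of 10.4 and a highest of 12.8 CPM. In knockouts the lowest was 3.80, the median 4.39 and the highest 6.45 CPM. All 6 knockout libraries lay below all 6 controls, and within the knockouts replicates 1 and 2 (6.11 and 6.45 CPM) lay above replicates 3 to 6 (3.80 to 4.52 CPM). The mean went from 10.8 ± 1.54 to 4.85 ± 1.14 CPM (SD over n = 6 a group), 45.1% of the control mean. The log2 fold change was -1.15 (SE 0.15, 95% interval -1.48 to -0.82), and the edgeR quasi-likelihood adjusted p was 0.0111, the fifth smallest p of the 16393 genes.

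The fall of Mmp28 did not rest on 1 library. With any 1 of the 12 libraries left out it still passed, at log2 fold changes from -1.25 to -1.09 and edgeR quasi-likelihood adjusted p from 0.00493 to 0.0429. Of the 131 genes called, 6 kept their call in all 12 of these fits. It also passed under the 8 other settings tried, which include DESeq2, limma-voom, other scalings and the deposited FPKM values (-0.74 on the log2(FPKM + 1) scale, which understates the change of low genes). The 2 knockout libraries with the highest Mmp28 were the 2 with the highest adipocyte marker sum and the highest Pparg, and the adipocyte sum, like Mmp28, did not overlap between groups; the part of adipocyte number in the Mmp28 difference was not tested. Whether reads were counted by strand was not given in the sources used, and 466 exonic bases of Mmp28 (12.03%) overlap 1700020L24Rik on the opposite strand, which stood at 3.76 ± 1.08 CPM in control libraries and 1.81 ± 1.13 CPM in knockout libraries (SD over n = 6 a group, edgeR quasi-likelihood adjusted p = 0.265). None of the 50-base words of the longest Mmp28 transcript occurred in another gene of GENCODE M21.

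The sequence upstream of Mmp28 is shown because it is the one member that passed the threshold in a knockout of a transcription factor. The 219 bases before its annotated start, chr11:83463072-83463290, minus strand, GRCm38.p6 from RefSeq, read 5′ to 3′ as follows, in lower case throughout because no searched motif was found.
Mmp28: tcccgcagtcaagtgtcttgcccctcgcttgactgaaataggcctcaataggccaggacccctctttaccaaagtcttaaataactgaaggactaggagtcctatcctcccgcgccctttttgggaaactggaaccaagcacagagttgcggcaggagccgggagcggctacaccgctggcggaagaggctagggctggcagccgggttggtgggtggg
In the 250 bases before the RefSeq start of Mmp28, the DR1 repeat, a pair of AGGTCA sites spaced by 1 base that Pparg binds with its partner Rxr, was not found on either strand. The single site AGGTCA, the AP-1 element TGANTCA, the PEA3 element AGGAAG and the TATA box TATAAA were not found there either. Of 32851 RefSeq promoter windows of that length, 0.0335% held the DR1 repeat, 14.0% the single site, 6.75% the AP-1 element, 29.5% the PEA3 element and 12.4% the TATA box, each searched on both strands, and every DR1 repeat also holds the single site. Such a search describes these letters in this window and does not speak to binding elsewhere.

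**Figure D2:**
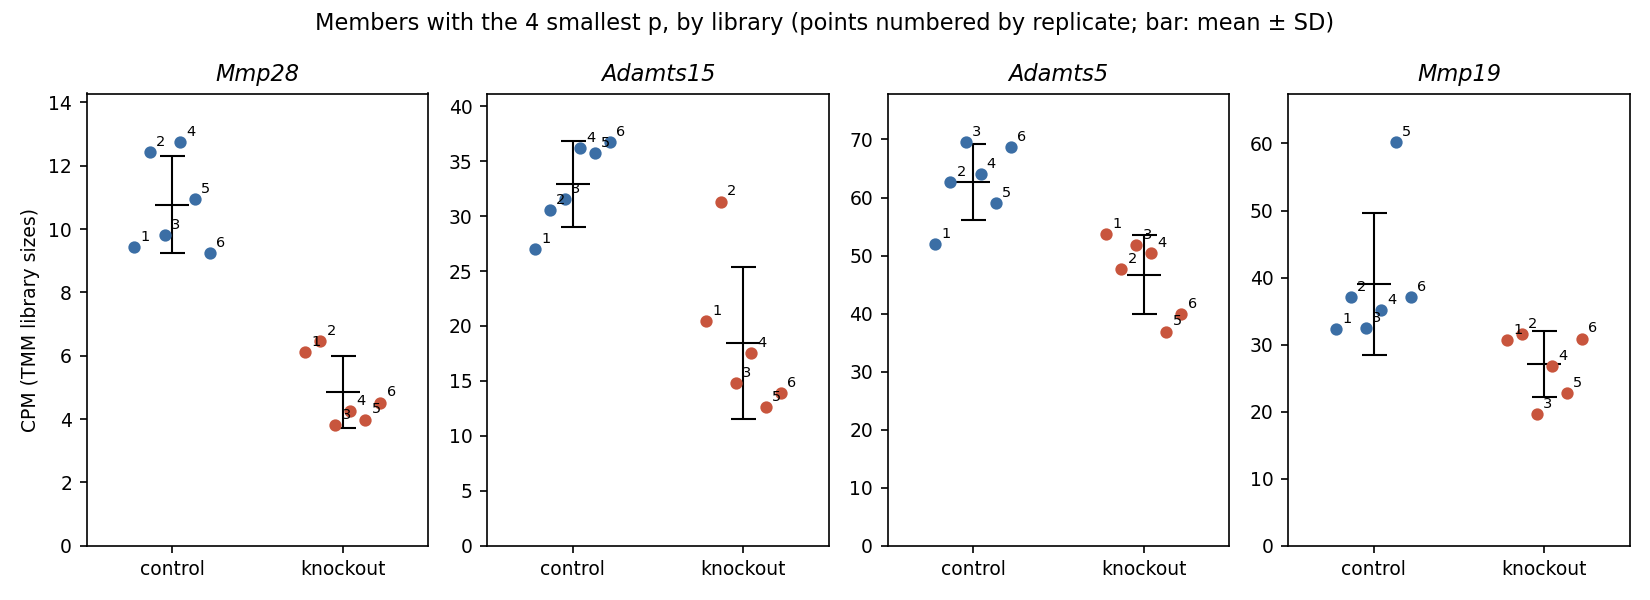
CPM in each library of the 4 members with the smallest p, Mmp28, Adamts15, Adamts5 and Mmp19. Each point is 1 library, numbered by replicate, and bars give the mean and SD of 6 libraries; the groups are apart for Mmp28 and Mmp19, and knockout replicate 2 lies among the controls for Adamts15.

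After Mmp28, the smallest p-values belonged to 2 proteases of aggrecan and versican, Adamts15 and Adamts5, and neither passed. Of 7 tested hyalectanases, as these ADAMTS proteases are called, 0 passed, 4 had negative and 3 positive log2 fold changes, and the median was -0.15. Adamts15, which cuts aggrecan and versican, ran from 27.0 (lowest) through 33.7 (median) to 36.7 CPM (highest) in controls. In knockouts it ran from 12.6 through 16.2 to 31.3 CPM. In all, 5 of 6 knockout libraries lay below all controls, and replicate 2, at 31.3 CPM, lay within their range. The log2 fold change was -0.84 (SE 0.19, 95% interval -1.25 to -0.43), and the edgeR quasi-likelihood adjusted p was 0.0678. Without knockout replicate 2 the log2 fold change was -1.06 and the adjusted p 0.00493 (edgeR quasi-likelihood). Adamts15 passed in only 1 of the 12 fits with a library left out, and edgeR adjusted p ran up to 0.171. Of the 8 other settings it passed under 3, which were DESeq2, limma-voom and limma on FPKM. As with Mmp28, the highest 2 knockout values of Adamts15 were those of replicates 2 and 1 (31.3 and 20.4 CPM).

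Adamts5, a major aggrecanase that also cuts versican, ran from 52.0 through 63.4 to 69.6 CPM in control libraries and from 36.9 through 49.0 to 53.7 CPM in knockout libraries. The groups overlapped by a single pair, since control replicate 1 (52.0 CPM) lay below knockout replicate 1 (53.7 CPM). The log2 fold change was -0.42 (SE 0.10, 95% interval -0.64 to -0.21), and the edgeR quasi-likelihood adjusted p was 0.0810. With DESeq2 Adamts5 passed at an adjusted p of 0.0189, the only 1 of the 8 other settings under which it did. It passed in 0 of the 12 fits with a library left out (edgeR adjusted p from 0.0517 to 0.190). Its neighbour Adamts1, which lies in the same 108 kb of chromosome 16 and cuts the same proteoglycans, ran from 25.8 to 41.2 CPM in control libraries and from 26.0 to 32.4 CPM in knockout libraries. The knockout range of Adamts1 lay wholly within that of the controls (log2 fold change -0.15, edgeR quasi-likelihood adjusted p = 0.789).

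The other hyalectanases gave no common direction. Adamts9, which is known from endothelium and clears versican in development, had medians of 22.5 CPM in controls (18.5 to 27.1) and 18.0 CPM in knockout libraries (13.2 to 24.5), with 3 of 6 knockout libraries below all controls and an edgeR quasi-likelihood adjusted p of 0.579. Adamts4, the other main aggrecanase, had medians of 22.1 CPM (20.1 to 33.0) and 26.9 CPM (18.8 to 33.8), and the edgeR quasi-likelihood adjusted p was 0.923. Adamts20 stood at 9.33 ± 1.76 and 12.04 ± 3.61 CPM (SD over n = 6 a group), with 3 of 6 knockout libraries above all controls, and its log2 fold change of 0.37 did not pass (edgeR quasi-likelihood adjusted p = 0.608). Adamts8, which lies next to Adamts15 within 65 kb of chromosome 9, stood near 1 CPM in both groups and had a log2 fold change of 0.27 (SE 0.35) against -0.84 for its neighbour; the difference between these was not tested.

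Among the other ADAMTS proteases none of 9 tested passed. Adamts2, the main enzyme that removes the N-propeptide of fibrillar procollagens, had medians of 115.9 CPM in controls (105.6 to 146.0) and 100.3 CPM in knockout libraries (89.8 to 134.1). In all, 4 of 6 knockout libraries lay below all controls, and the log2 fold change was -0.16 (edgeR quasi-likelihood adjusted p = 0.786). Its relative Adamts14 had medians of 33.1 CPM (26.5 to 41.1) and 39.4 CPM (31.2 to 46.1), with a log2 fold change of 0.24 (edgeR quasi-likelihood adjusted p = 0.542). Adamts12, which cuts the cartilage matrix protein COMP, had medians of 51.9 CPM (44.3 to 64.3) and 43.1 CPM (35.5 to 56.9), with a log2 fold change of -0.25 (edgeR quasi-likelihood adjusted p = 0.543), and Adamts7, which cuts it too, had a log2 fold change of 0.13. Adamts3, Adamts6, Adamts10, Adamts16 and Adamts17 had log2 fold changes between -0.21 and 0.11.

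The inhibitors were led by Timp2 and Timp1. By the deposited FPKM, a level per gene length, Timp2 had the highest level of all 45 members, at 156 ± 15.1 FPKM in control libraries and 160 ± 16.7 in knockout libraries, and Timp1 the second, at 76.0 ± 15.9 and 95.9 ± 13.3 FPKM (SD over n = 6 a group). Timp3 and Timp4 stood far lower, between 1.26 and 1.98 FPKM on average in either group. Together Timp2 and Timp1 made up nearly the whole TIMP signal in these libraries.

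Timp1, the inhibitor that inflammation and injury induce, ran from 47.5 through 69.8 to 87.6 CPM in control libraries and from 70.6 through 83.3 to 103.5 CPM in knockout libraries. In all, 2 of 6 knockout libraries, replicates 3 and 6, lay above all controls. The log2 fold change was 0.33 (SE 0.13, 95% interval 0.04 to 0.62), and with an adjusted p of 0.421 it did not pass (edgeR quasi-likelihood). Timp2, which blocks MMPs and also joins Mmp14 in activating pro-Mmp2, ran from 554 through 594 to 698 CPM in control libraries and from 574 through 599 to 715 CPM in knockout libraries. Its 95% interval, -0.17 to 0.22 on the log2 scale, was among the narrowest of the members. Timp1 as a share of the TIMP FPKM was 32.1% ± 3.45 in control libraries and 37.0% ± 4.02 in knockout libraries (SD over n = 6 a group), above all controls in 5 of 6 knockout libraries and below most of them in replicate 2 (29.8%).

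Timp3, the TIMP that stays bound to the matrix and also blocks ADAM and ADAMTS proteases, ran from 8.56 through 15.5 to 18.7 CPM in control libraries and from 10.4 through 17.2 to 19.2 CPM in knockout libraries (log2 fold change 0.10, edgeR quasi-likelihood adjusted p = 0.953). Timp4, known from heart and fat, varied most of the TIMPs: it ran from 3.78 through 9.30 to 17.1 CPM in control libraries and from 2.29 through 6.21 to 14.8 CPM in knockout libraries. The 3 knockout replicates 3, 5 and 6 lay below all controls, while replicates 1 and 2, at 14.8 and 12.6 CPM, lay above all controls but 1; the log2 fold change was -0.28 with a 95% interval from -1.35 to 0.79. Timp1, Timp3 and Timp4 each lie within a synapsin gene (Syn1, Syn3 and Syn2) on the opposite strand, and 1733 exonic bases of Timp3 (21.3%) overlap Syn3. Syn3 had at most 12 counts in a library, and Syn1 and Syn2 stood at 2.44 ± 0.70 and 5.73 ± 1.70 CPM in controls (SD, n = 6).

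**Figure D3:**
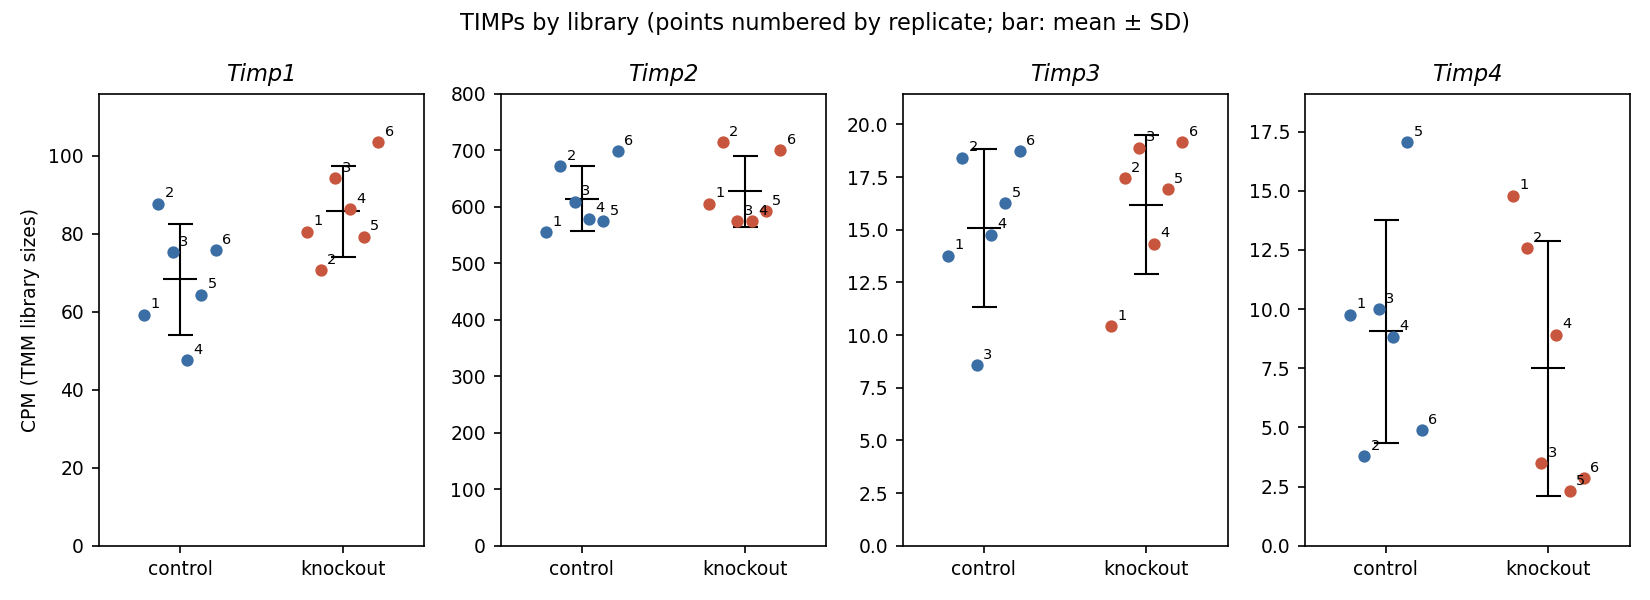
CPM of the 4 TIMPs in each library, points numbered by replicate, with bars for the mean and SD of 6 libraries. The groups overlap in all 4 panels; Timp2 varies least relative to its mean, and in the Timp4 panel knockout replicates 1 and 2 lie high.

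The gelatinase Mmp2 and its activator Mmp14 had the highest levels among the MMP and ADAMTS members, and neither passed. Mmp2, which cuts denatured collagen and collagen IV, stood at 71.4 ± 15.05 FPKM in control libraries and 62.3 ± 14.3 in knockout libraries (SD over n = 6 a group), which was 35.4% and 36.0% of the summed FPKM of all MMPs. In CPM it ran from 162 through 256 to 302 in control libraries and from 167 through 199 to 274 in knockout libraries, so the groups overlapped almost fully (log2 fold change -0.21, edgeR quasi-likelihood adjusted p = 0.828). Mmp14, the membrane-bound collagenase MT1-MMP, ran from 221 through 264 to 328 CPM in control libraries and from 190 through 225 to 283 CPM in knockout libraries. In all, 3 of 6 knockout libraries lay below all controls, and the log2 fold change was -0.23 (edgeR quasi-likelihood adjusted p = 0.622). The ratio of Mmp14 to Mmp2 in FPKM was 0.637 ± 0.116 and 0.627 ± 0.0913 (SD over n = 6 a group).

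Mmp9, the gelatinase of neutrophils and macrophages, ran from 13.4 through 25.2 to 28.1 CPM in control libraries and from 13.9 through 23.1 to 36.4 CPM in knockout libraries (log2 fold change 0.12, edgeR quasi-likelihood adjusted p = 0.963). Mmp8, the neutrophil collagenase, was scarce, with 14 to 86 counts in a library, and ran from 0.783 through 1.52 to 4.37 CPM and from 1.03 through 2.25 to 3.20 CPM. Neutrophil markers were scarce as well: the 10 listed genes summed to 27.1 to 58.5 CPM in control libraries and 31.1 to 58.9 CPM in knockout libraries.

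Of the membrane-type MMPs besides Mmp14, Mmp15 had the smallest p. It ran from 26.8 through 34.0 to 36.8 CPM in control libraries and from 36.6 through 38.6 to 44.2 CPM in knockout libraries. The lowest 3 knockout values, 36.6 to 36.8 CPM, lay beside the highest 2 control values, and replicates 3, 4 and 5 lay above all controls. The log2 fold change of 0.24 (SE 0.08) did not pass over all genes (edgeR quasi-likelihood adjusted p = 0.286). Mmp16, Mmp17 and Mmp25 stood near 2 CPM with log2 fold changes of -0.15, 0.28 and -0.04.

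Mmp19, a secreted protease of basement membrane proteins, was the second member whose groups did not overlap. It ran from 32.3 through 36.1 to 60.2 CPM in control libraries and from 19.7 through 28.8 to 31.6 CPM in knockout libraries. The gap between the groups was narrow, 31.6 against 32.3 CPM, and control replicate 5 stood alone at 60.2 CPM above the other controls at 32.3 to 37.1 CPM. The log2 fold change was -0.53 (SE 0.16), and the edgeR quasi-likelihood adjusted p was 0.206. Without control replicate 5 the log2 fold change was -0.35, and the edgeR adjusted p was 0.334. Tmem198b overlaps 789 exonic bases of Mmp19 (22.3%) on the opposite strand and stood at 9.37 ± 2.02 and 9.91 ± 1.30 CPM (SD over n = 6 a group).

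A group of 9 MMP genes lies together within 427 kb of chromosome 9, from 7272514 to 7699585 (GRCm38), and several of them varied widely between libraries of 1 group. Mmp13, the main interstitial collagenase of the mouse, ran from 6.84 through 33.6 to 150.8 CPM in control libraries and from 14.0 through 24.4 to 50.03 CPM in knockout libraries. Mmp3, stromelysin 1, ran from 2.14 through 8.85 to 42.4 CPM in control libraries and from 2.81 through 4.61 to 15.4 CPM in knockout libraries. The same libraries led for both genes, control replicate 3 among controls and knockout replicate 4 among knockouts, and Mmp10, stromelysin 2, had its highest count, 25, in control replicate 3 too. Log2 fold changes of -0.81 for Mmp13 and -1.10 for Mmp3 had SEs of 0.63 and 0.64 and did not pass (edgeR quasi-likelihood adjusted p = 0.821 and 0.673). Without control replicate 3 they were -0.0055 and -0.22. Tendon cell markers summed to 211 to 949 CPM in controls, with control replicate 3 the highest, and to 288 to 523 CPM in knockout libraries, with knockout replicate 4 the highest. By the mean log2 CPM of these markers control replicate 3 (5.04) was again the highest control, but knockout replicate 4 (4.08) came after knockout replicates 6 and 1 (4.45 and 4.18). The part of tendon cells in the Mmp3 and Mmp13 values was not tested.

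Mmp12, the macrophage elastase, followed another order within the same cluster. It ran from 11.5 through 77.7 to 112 CPM in control libraries and from 29.2 through 40.4 to 75.2 CPM in knockout libraries (log2 fold change -0.43, SE 0.52, edgeR quasi-likelihood adjusted p = 0.921). Control replicates 2 and 4 stood at 13.6 and 11.5 CPM, and the other 4 controls at 69.1 to 112 CPM. The macrophage marker sums of control replicates 2 and 4, 8674 and 7907 CPM, were the highest of the controls, while by the mean log2 CPM of the same markers replicate 2 (8.55) was the highest and replicate 4 (8.29) the second lowest. Against that mean, Mmp12 had Pearson r = -0.226 in control libraries and 0.238 in knockout libraries (exact permutation p = 0.725 and 0.61). Spearman rho was -0.314 and 0.0857, and r was 0.442 and 0.653 without the 2 libraries farthest from the median. Beyond these correlations, the part of macrophages in the Mmp12 values was not tested. Mmp27 had a log2 fold change of 0.31 (edgeR quasi-likelihood adjusted p = 0.648). Mmp3 and Mmp10 shared 8.39% and 8.37% of their 50-base words, in each case mostly with the other, so their counts are less certain.

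**Figure D4:**
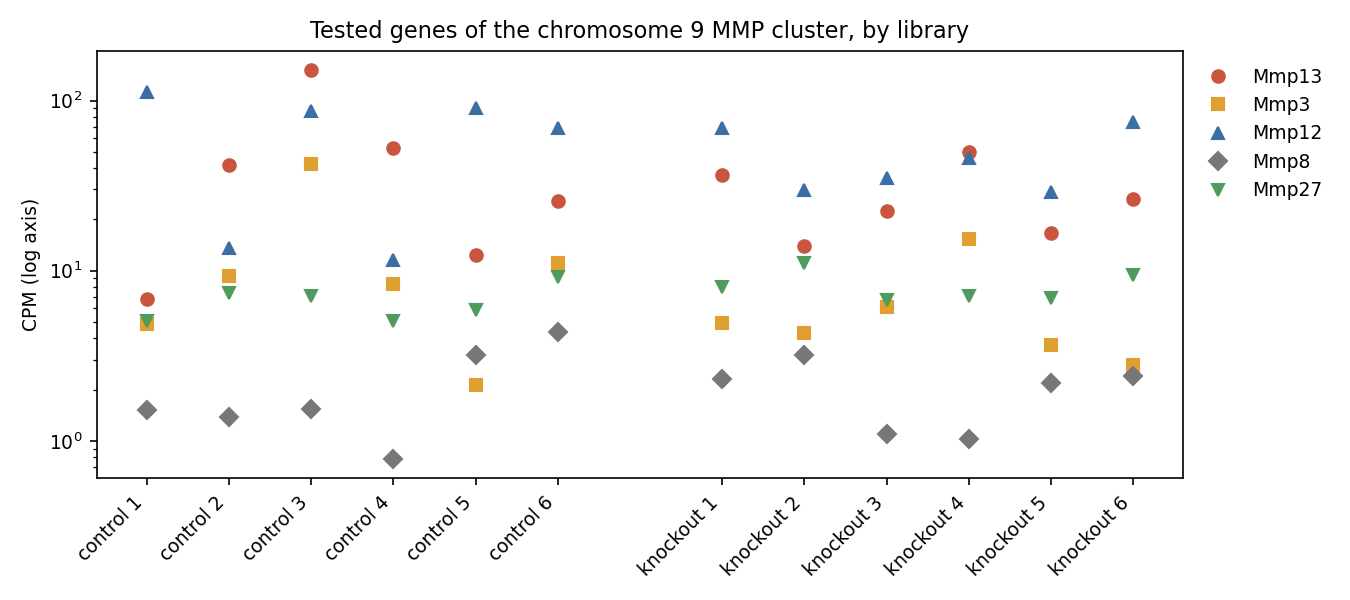
CPM on a log axis of the 5 tested genes of the chromosome 9 cluster in each of the 12 libraries. Mmp13 and Mmp3 are highest in control 3 and, among knockouts, in knockout 4, while Mmp12 is low in control 2 and control 4.

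Upstream windows are shown for Mmp13, Mmp3 and Mmp10, cluster genes for which control replicate 3 led. A window of Mmp12, which had another order, is set beside them. Each window shown has the AP-1 element TGANTCA, the site of Fos and Jun dimers that is known from MMP promoters. The Mmp12 window was picked because it has the element, so it gives no comparison on that point. The 100 bases before the RefSeq start (GRCm38.p6, plus strand, 5′ to 3′) have the AP-1 element and the TATA box TATAAA in capitals.
Mmp13, chr9:7272414-7272513: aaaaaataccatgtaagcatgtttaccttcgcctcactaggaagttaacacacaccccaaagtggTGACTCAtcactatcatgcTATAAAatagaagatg
Mmp3, chr9:7445722-7445821: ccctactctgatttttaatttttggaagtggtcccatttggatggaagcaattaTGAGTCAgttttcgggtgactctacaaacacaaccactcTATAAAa
Mmp10, chr9:7502242-7502341: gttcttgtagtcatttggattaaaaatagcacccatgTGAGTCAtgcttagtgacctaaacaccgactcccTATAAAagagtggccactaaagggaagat
Mmp12, chr9:7347274-7347373: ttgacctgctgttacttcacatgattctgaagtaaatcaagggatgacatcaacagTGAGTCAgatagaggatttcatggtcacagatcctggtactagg
The AP-1 element began 35, 46, 63 and 44 bases before the start of Mmp13, Mmp3, Mmp10 and Mmp12. For Mmp12 the window belongs to the start that lies farther within the annotated gene. The window of the other Mmp12 start, chr9:7344147-7344396, had neither the AP-1 element nor the TATA box. RefSeq promoters were matched for 31 of the 45 members, and the element was found in a window of 7 of 9 genes of the cluster and of 0 of the 22 others, beside 6.75% of all windows; Mmp8 and Mmp27 of the cluster had none. The TATA box was found in 6 of the 9 and in 2 of the 22, and the PEA3 element in 13 of the 31. The other cluster genes with the AP-1 element were Mmp1b, Mmp7 and Mmp20.

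The members spanned a wide range of levels. By mean FPKM over the 12 libraries the order began with Timp2, Timp1, Mmp2, Mmp14 and Mmp23, the last at 15.6 ± 2.35 FPKM in control libraries and 14.98 ± 3.08 in knockout libraries (SD over n = 6 a group), and the values of Mmp2 and Timp1 in controls overlapped. Mmp13 and Adamts2 came next, at 17.8 ± 19.6 and 12.8 ± 1.70 FPKM in controls (SD, n = 6), and the spread of Mmp13 covered the levels of many members below it. Mmp28 was 23rd in this order, at 2.74 ± 0.39 FPKM in control libraries and 1.24 ± 0.29 in knockout libraries (SD over n = 6 a group). Mmp11 and Mmp23 had log2 fold changes of 0.03 and -0.06, and Mmp11 (95% interval -0.16 to 0.21) was among the members with a narrow interval.

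**Figure D5:**
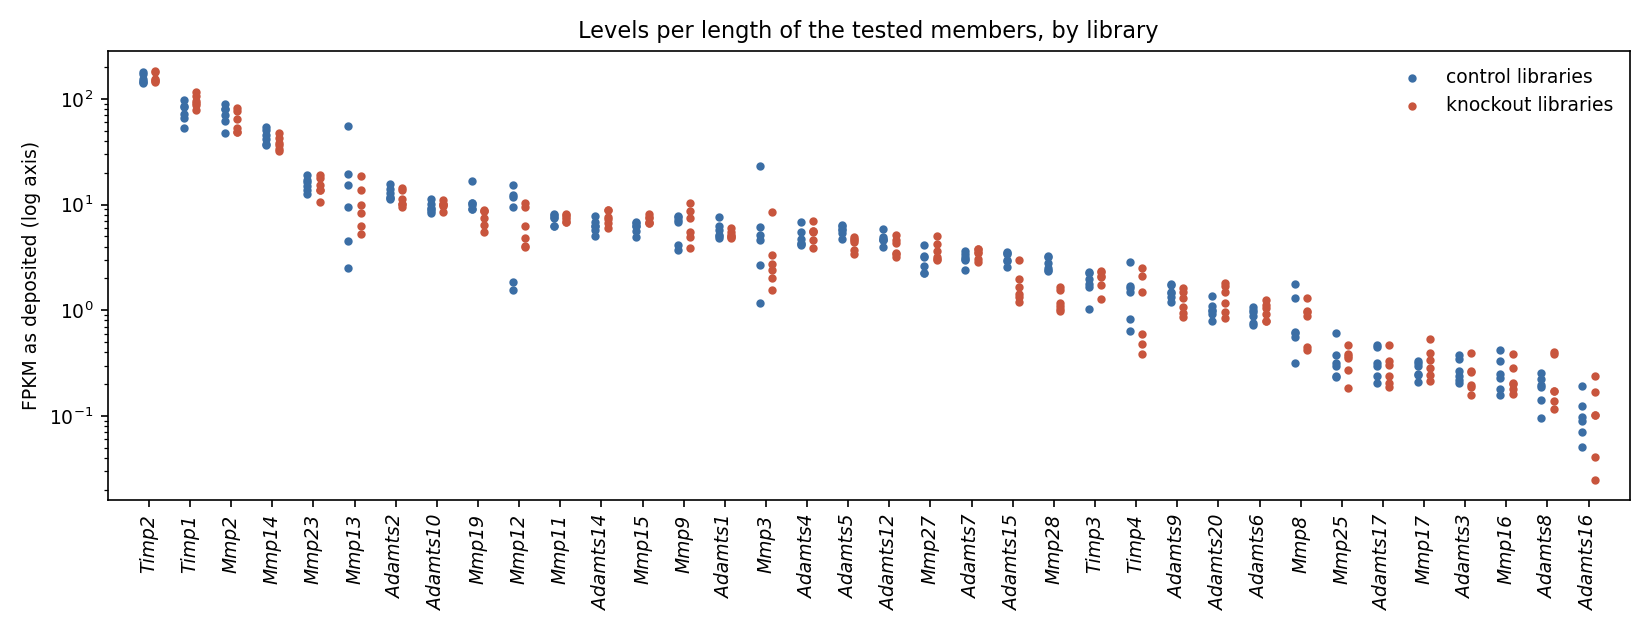
Deposited FPKM of the 36 tested members in each library on a log axis, ordered by the mean over all 12 libraries, controls and knockouts side by side. Timp2 leads at 140 to 182 FPKM, and Mmp28 and Adamts15 lie in the middle of the order.

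The other 9 members had too few reads for a test. Mmp20, the enamel protease, had 0 counts in all 12 libraries, which allows a level of up to 0.0118 CPM over the libraries together (3 counts, counting error only). Mmp1b, Mmp24, Mmp7 and Mmp21 had 4, 5, 9 and 25 counts in total. Adamts13, the protease of von Willebrand factor, had 33, and Mmp10, Adamts18 and Adamts19 had 74, 100 and 113. Of the 113 counts of Adamts19, 58 came from control replicate 5 and 29 from knockout replicate 1.

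The sums of the families show how proteases and inhibitors stood to each other. MMPs summed to 203 ± 39.6 FPKM in control libraries and 172 ± 25.3 in knockout libraries, ADAMTS to 60.6 ± 5.40 and 57.6 ± 3.87, and TIMPs to 235 ± 28.8 and 259 ± 21.3 (SD over n = 6 a group). The MMP sum divided by the TIMP sum was 0.705 to 1.10 in control libraries and 0.581 to 0.742 in knockout libraries, with 4 of 6 knockout libraries below all controls. The highest ratio was that of control replicate 3, whose MMP sum of 265 FPKM held 55.7 of Mmp13 and 23.3 of Mmp3. Control replicate 4 came next at 0.999, and the lowest control was replicate 5. These sums are descriptions, weighted by the few members with high levels, and were not tested.

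Members were compared with markers of the cells they are known from, within each group of 6 libraries. Over 19 fixed pairs and both groups, 38 correlations were computed with exact permutation p-values, and 0 passed after Benjamini-Hochberg adjustment. The lowest adjusted p was 0.158 for Pearson's r and 0.106 for Spearman's rho. The orderings of 6 libraries set a floor to these p-values, and even a rho of 1.00 gave an adjusted p of 0.106. No single pair could pass on its own, however strong, so the count of 0 decides nothing about any pair. The smallest p was for Timp4 and the adipocyte score in knockout libraries (Pearson r = 0.897, exact permutation p = 0.00417, adjusted p = 0.158, Spearman rho = 1.00, exact permutation p = 0.00278, adjusted p = 0.106, r = 0.904 without the 2 libraries farthest from the median score). In controls the same pair had r = -0.327 (exact permutation p = 0.504) and rho = -0.371 (exact permutation p = 0.497), and r was -0.941 without the 2 farthest libraries. For Adamts9 and the endothelial score r was 0.865 in control libraries and 0.765 in knockout libraries (exact permutation p = 0.0292 and 0.0444, both adjusted p = 0.192), with rho of 0.886 and 0.771 (exact permutation p = 0.0333 and 0.103, adjusted p = 0.317 and 0.345) and r of 0.759 and 0.874 without the 2 farthest libraries.

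Other genes of matrix turnover, fixed as lists, gave few calls. Of the ADAMTS-like genes, which have the thrombospondin repeats without the protease, 1 of 7 tested rose: Adamtsl2, which binds fibrillin and latent TGF-beta binding protein, went from 5.11 ± 1.36 to 9.43 ± 1.69 CPM (SD over n = 6 a group, edgeR quasi-likelihood adjusted p = 0.0361), where 0.0488% of all genes were called higher. Adamtsl2 kept this call without control 6, knockout 1 or knockout 2 and lost it when any of the other 9 libraries was dropped, with log2 fold changes from 0.80 to 0.99 and edgeR adjusted p from 0.0312 to 0.103.

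Of 19 tested substrates, 1 fell, where 0.75% of all genes were called lower, and 16 were negative on the log2 scale, where 50.5% of all genes were (median -0.18). The gene that fell was Col4a1, a basement membrane collagen that Mmp2 and Mmp9 cut, which went from 591 ± 63.2 to 423 ± 47.7 CPM (SD over n = 6 a group, edgeR quasi-likelihood adjusted p = 0.0339). Col4a1 kept this call without control 3, knockout 1 or knockout 2 and lost it without any 1 of the other 9 libraries, with log2 fold changes from -0.52 to -0.43 and edgeR adjusted p from 0.0339 to 0.101. The list shares Dcn and Lum with the FAP markers, whose sum was 1816 to 2571 CPM in control libraries and 1184 to 1937 CPM in knockout libraries, and the part of FAP number in the substrates' values was not tested.

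None of 8 tested ADAM sheddases passed, and 7 were negative on the log2 scale, where 50.5% of all genes were (median -0.08). Adam12, known from regenerating muscle and fat precursors, stood at 131 ± 14.3 and 98.4 ± 17.7 CPM (SD over n = 6 a group, log2 fold change -0.41, edgeR quasi-likelihood adjusted p = 0.139), and Adam17 had -0.10. None of 4 tested astacins and enhancers passed; Bmp1, the procollagen C-proteinase, stood at 203 ± 17.0 and 169 ± 11.4 CPM (SD over n = 6 a group, edgeR quasi-likelihood adjusted p = 0.139), and Pcolce, its enhancer, had -0.14. None of 9 tested genes of the plasminogen system and of proprotein convertases passed, and Pcsk5, a proprotein convertase, had a log2 fold change of -0.37. None of 6 other regulators passed, with 0.36 for Thbs1 and -0.15 for Sparc, a collagen-binding matrix protein. None of 11 cathepsins and cystatins passed, with -0.19 for Ctsk, the collagen-cutting cathepsin, and -0.11 for Cst3.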

How the data were processed

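RNA of whole muscle was sequenced in 12 libraries, 6 a group, with messenger RNA selected on poly-T beads, per the labels' protocols. The deposited table gives a raw count of reads for each gene. The submitters' processing notes name fastp, HISAT2 2.0.5, featureCounts and the build GRCm38 (mm10); whether counting used strand was not given in the sources used. The FPKM table deposited by the authors is proportional within a library to count over gene length.

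Counts were tested with edgeR 4.0.16 in R 4.3.3: filterByExpr defaults (minimum count 10, minimum total 15), TMM scaling, robust quasi-likelihood F tests over all 16393 kept genes, Benjamini-Hochberg adjustment, threshold 0.05. Standard errors are the log2 fold change over the root of its F. CPM uses TMM library sizes, and marker scores are mean log2 CPM with a prior count of 2. The fit was tested on simulated counts of 16393 genes: it recovered 57 of 100 genes with a 1.5-fold change and 84 of 100 with a 2-fold change, with 10 false calls among 151. Changes were set only in protein-coding genes above a floor of mean CPM, so these rates do not cover the members with the lowest levels. Each count was drawn independently, so shifts that many genes share within a library were not simulated, and the rates may not hold with them. Alternatives were RLE and upper-quartile scaling, DESeq2 1.42.0, limma 3.58.1 (voom with quality weights, and log2(FPKM + 1)), 2 other filters, the replicate number as a block, and each library left out. Over the 30 pairs of libraries within groups, chi-square per degree of freedom was 12.9 to 159, so none was counted as a duplicate. Coordinates of 44 of 45 members equal those of GENCODE M21; sequences are from RefSeq (GRCm38.p6).

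Any member could be named; values by library are given for the called members, the TIMPs, 14 listed proteases, and the 4 members of each family with the smallest p. Of each companion list, the members past the threshold are named or, where none passed, the 2 with the smallest p; 1 such gene is not reported here. The members and lists were chosen with earlier results of these data known. The motifs were chosen after the members' values were seen.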

Additional observations from a re-analysis of the deposited data

Results flagged for a closer look

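In 5 cases 1 library lay far from the other 5 of its group, by the gap to its nearest neighbour over the range of the group (critical value 0.625). Control replicate 3 had 42.4 CPM of Mmp3 and 151 CPM of Mmp13, where the other controls reached 11.1 and 52.6 CPM. Knockout replicate 4 had 15.4 CPM of Mmp3, where the other knockouts reached 6.08 CPM. Control replicate 5 had 60.2 CPM of Mmp19, where the other controls reached 37.1 CPM. Control replicate 1 had 3.32 CPM of Mmp25, where the other controls reached 2.03 CPM. The 36 tested members were checked in each of the 2 groups, and chance alone flags about 1 in 20 such groups.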

How the results depend on the processing

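Mmp28 passed under all 20 alternatives, with log2 fold changes from -1.26 to -0.74. The number of members past the threshold was 3 with DESeq2 (Mmp28, Adamts15 and Adamts5), 2 with limma-voom and 2 with limma on FPKM (Mmp28 and Adamts15), and 1 to 2 when a library was left out. The number of genes past the threshold was 387 with DESeq2, 0.71% of all 54532 genes, most of them too low for the main fit. It was 393 with limma-voom and 172 with limma on FPKM, 2.4% and 1.05% of tested genes. When a library was left out it was 6 to 214, 0.0364% to 1.29%. More member calls thus came with more calls over all genes, and the shares were not tested. Over all genes, the number past the threshold also moved with a block. With the replicate number as a block it was 236 (1.44%), and the block changed no call of a member. The labels do not say whether same-numbered libraries share an animal or a day. Correlations of their deviations were -0.133 to 0.464, over 0.1 in 2 of 6, with 2 of 6 closest to their own number. The median of the members was -0.13 to -0.015 when a library was left out. Signs turned only for values that never passed: Mmp8 was 0.092 with limma-voom, 0.019 with the block and 0.0027 with limma on FPKM, and -0.23 to 0.27 over libraries left out; over the same fits Timp2 ran from -0.012 to 0.069, Timp3 from -0.017 to 0.21, Timp4 from -0.61 to 0.0097 and Mmp9 from -0.033 to 0.25. At counts near those of Mmp8, depth limits what can be detected.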
